A study of Mus musculus with 8 samples.

Results

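The ERVL class comprised 170 of the 1268 transposon entries counted in this study of mouse testis RNA, that is 85 of 634 families, each counted in sense and in antisense orientation. The entries were chosen by name, as every LTR family annotated as ERVL. The 7 families whose names begin with MERVL or MT2 (14 entries) were set apart from the other 78 families (156 entries). RNA was sequenced from 8 libraries of C57BL/6 mice aged 6 weeks, in 4 groups of 2: an RNF17 antibody pull-down of RNA (the IP) from homozygous RNF17 testes, the same IP from heterozygous RNF17 testes, total RNA of homozygous RNF17 testes, and total RNA of heterozygous RNF17 testes. Each IP was set against the total RNA of its genotype as input. All libraries were made with not-so-random primers, which are chosen to avoid ribosomal RNA. All animals carried at least 1 altered Rnf17 allele, which the labels do not describe, and no wild-type library was used here. Whether the 2 libraries of a group were made from different animals is not labelled, so p-values rest on a spread between libraries that may be technical.

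ERVL elements are endogenous retroviruses whose relatives prime reverse transcription with a leucine tRNA. MERVL is the young mouse family: its internal region (MERVL-int) encodes gag and pol, and its LTR, MT2_Mm, is an active promoter in the 2-cell embryo. MT2A, MT2B, MT2B2 and MT2C_Mm are older LTRs of the same lineage. In the male germ line, antisense piRNAs carried by PIWI proteins guide cleavage of sense transposon transcripts, and the sense fragments can in turn make new antisense piRNAs, a cycle called ping-pong. RNF17 is a Tudor domain protein of germ cells that acts in this pathway. The RNA libraries analysed here hold longer RNAs and not piRNAs.

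Levels are given as CPM, which are reads scaled to 1e+06 reads assigned to genes, with TMM factors from the gene table. They are not divided by the length of an element, so they are compared between libraries and not between families. Uniquely mapped reads were counted in one table and multiply mapped reads in another. Genic reads were 5661754 and 7344970 in homozygous IP, 9222913 and 5858753 in heterozygous IP, 7260047 and 50575649 in homozygous testis, and 6140624 and 19838802 in heterozygous testis. Uniquely mapped transposon reads per 100 genic reads were 6.90 and 6.97 in homozygous IP, 14.6 and 11.8 in heterozygous IP, 18.8 and 8.01 in homozygous testis, and 19.3 and 6.30 in heterozygous testis. The first testis library of each genotype thus stood apart from the second. Among ERVL entries with enough reads, the median differed 2.42-fold between the heterozygous testis libraries (first over second) and 1.34-fold between the homozygous ones. It differed only 0.987-fold in homozygous IP and 1.06-fold in heterozygous IP. Comparisons that use testis libraries therefore had wide errors, and comparisons of the 2 IPs had narrow ones.

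Rnf17 itself had 209 and 380 CPM in homozygous IP, against 1273 and 1173 CPM in heterozygous IP (log2 fold change −2.06, SE 0.271, edgeR quasi-likelihood adjusted p = 2.17e-04). It had 50.1 and 105 CPM in homozygous testis, against 518 and 532 CPM in heterozygous testis (log2 fold change −2.76, SE 0.644). That difference missed the threshold with edgeR (adjusted p = 0.144) and passed it with DESeq2 (adjusted p = 0.00123). The gene's level thus went with the genotype label in all 8 libraries.

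In the IPs, antisense reads of the MERVL internal region were 14.1-fold lower in homozygous than in heterozygous testes. MERVL-int antisense had 17.2 and 19.0 CPM in homozygous IP, against 270 and 244 CPM in heterozygous IP. The groups were far apart and each was tight (log2 fold change −3.82, SE 0.192). Its edgeR adjusted p of 7.76e-06 was the smallest of the 974 transposon entries tested. Sense reads of the same region had 36.0 and 56.8 CPM in homozygous IP, against 105 and 110 CPM in heterozygous IP (log2 fold change −1.21, SE 0.229, edgeR adjusted p = 0.0022). Both strands fell, and the antisense strand by much more. From the IPs of these bulk samples alone, fewer cells of a type, less RNA per cell and less RNA recovered in the pull-down cannot be told apart.

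The internal region MERVL_2A-int, a related provirus body, fell on both strands. Its antisense reads had 23.7 and 15.8 CPM in homozygous IP, against 70.5 and 59.1 CPM in heterozygous IP (log2 fold change −1.72, SE 0.239, edgeR adjusted p = 4.83e-04). Its sense reads had 57.5 and 55.5 CPM in homozygous IP, against 125 and 127 CPM in heterozygous IP (log2 fold change −1.15, SE 0.169, edgeR adjusted p = 6.15e-04). Unlike MERVL-int, the antisense level of this family stayed below its sense level in both IPs. Summed over both strands, the 2 internal families had 141 ± 9.07 CPM in homozygous IP and 555 ± 21.7 CPM in heterozygous IP (SD, n = 2 each).

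Among the MT2 LTRs, the promoters of this lineage, MT2C_Mm antisense changed most. It had 12.4 and 12.9 CPM in homozygous IP, against 64.8 and 72.7 CPM in heterozygous IP (log2 fold change −2.44, SE 0.204, edgeR adjusted p = 7.88e-05). MT2C_Mm sense had 14.04 and 16.46 CPM in homozygous IP, against 42.9 and 41.6 CPM in heterozygous IP (log2 fold change −1.47). MT2_Mm, the LTR of MERVL, was rare on both strands. Its antisense reads had 2.22 and 2.26 CPM in homozygous IP, against 8.78 and 7.97 CPM in heterozygous IP (log2 fold change −1.90, SE 0.39). Its sense reads had 6.10 and 9.68 CPM in homozygous IP, against 18.8 and 23.1 CPM in heterozygous IP (log2 fold change −1.39, SE 0.304). The groups did not overlap on either strand, with edgeR adjusted p values of 0.00325 for antisense and 0.0043 for sense.

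MT2A, MT2B and MT2B2 are older LTRs. MT2A had 121 and 104 CPM antisense in homozygous IP, against 190 and 185 CPM in heterozygous IP (log2 fold change −0.74), and its sense reads fell further (log2 fold change −1.21). MT2B and MT2B2 fell in antisense, with log2 fold changes of −0.90 and −1.18. Their sense entries did not pass the test: MT2B sense had a log2 fold change of −0.35 (SE 0.164, edgeR adjusted p = 0.0921) and MT2B2 sense one of −0.31 (SE 0.19, edgeR adjusted p = 0.193). MT2B sense had 129 and 143 CPM in homozygous IP, against 167 and 181 CPM in heterozygous IP, so these groups too were separate. The 5 MT2 families together had 487 ± 13.7 CPM in homozygous IP and 883 ± 14.4 CPM in heterozygous IP (SD, n = 2 each).

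**Figure D1:**
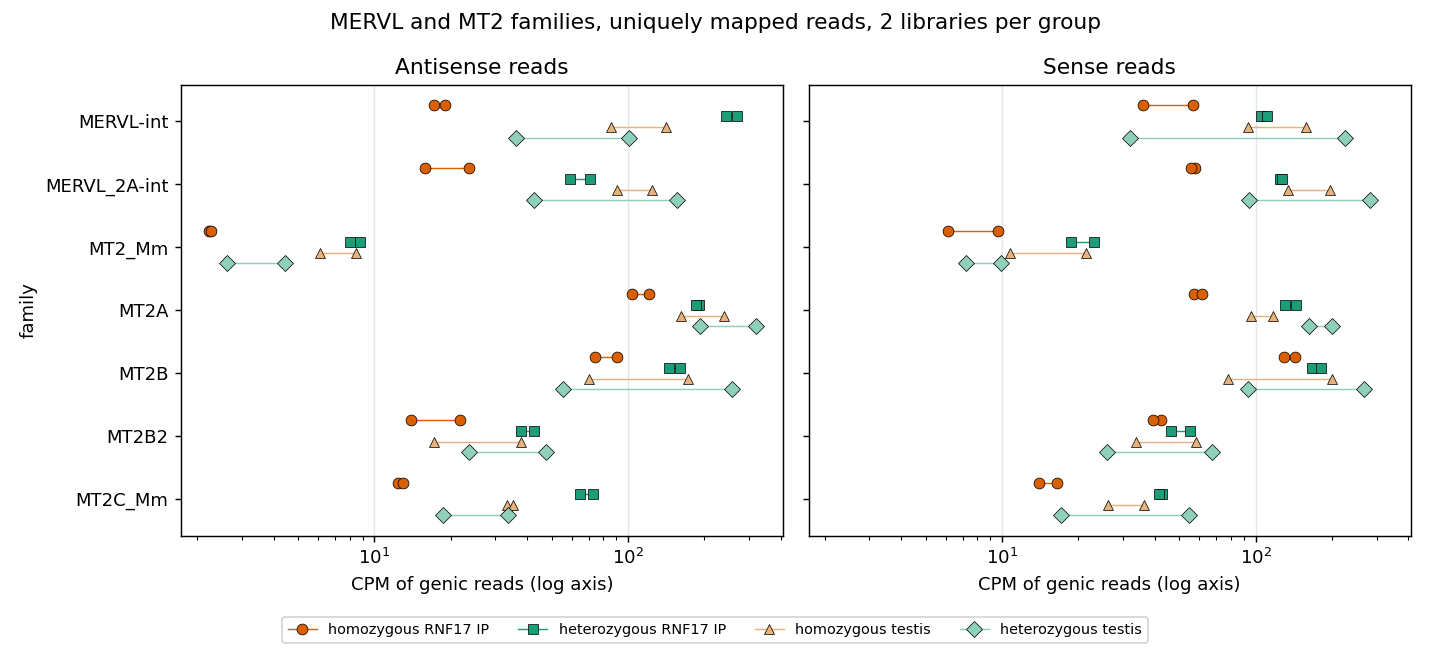
Level of each MERVL and MT2 family in antisense (left) and sense (right) in uniquely mapped reads, in CPM of genic reads on a log axis, with 1 point per library and a line joining the 2 libraries of a group. MERVL-int antisense lies at 17.2 and 19.0 CPM in homozygous IP and at 270 and 244 CPM in heterozygous IP, while the testis libraries of both genotypes lie between.

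In all, 12 of the 14 MERVL and MT2 entries were called lower in homozygous IP, and none was higher, by edgeR and by DESeq2 alike. In contrast, 1 fit of all 8 libraries called 2 lower, beside 38 of all 1060 entries (3.58%). All 14 passed the filter on low counts, and their median log2 fold change was −1.21. Over all 974 entries tested, 57.7% were called, 55.5% lower and 2.16% higher, and the median was −0.866. An unadjusted p under 0.05 was reached by 62.9%, and DESeq2 called 49.6%. Most transposon entries were thus lower in homozygous IP when scaled by genic reads, and no test set the 14 entries apart from the rest. Scaling by TMM within the transposon table put the median of all entries at −0.0516 in place of −0.866, and genic totals without TMM put it at −1.2. With TMM within the transposon table, MERVL-int antisense (−3.01, adjusted p = 4.98e-05), MT2C_Mm antisense (−1.63), MERVL_2A-int antisense (−0.91) and MT2C_Mm sense (−0.65) stayed called, while the sign turned for MT2A antisense, MT2B sense and MT2B2 sense, without passing the threshold.

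The other ERVL families had 92 entries that passed the filter, of which 32 were called lower and 1 higher. That is 35.9% called, below the 57.7% of all entries, a difference that was not tested. Their median log2 fold change of −0.775 was close to that of all entries. RMER15, an LTR, was the most clearly changed: its sense reads had 71.9 and 68.9 CPM in homozygous IP, against 222 and 193 CPM in heterozygous IP (log2 fold change −1.56, SE 0.172, edgeR adjusted p = 2.00e-04). Its antisense reads fell less (log2 fold change −0.89). The internal region RMER15-int had 46.2 and 55.0 CPM sense in homozygous IP, against 141 and 131 CPM in heterozygous IP (log2 fold change −1.43). MER88 sense, the 1 entry called higher, was rare, at 3.51 and 2.26 CPM in homozygous IP, against 1.04 and 0.782 CPM in heterozygous IP (log2 fold change 1.60, SE 0.502, edgeR adjusted p = 0.0224), and DESeq2 did not call it.

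Of the 4 most abundant antisense entries outside MERVL and MT2, RMER15 was called lower, as given above, and the others did not pass the test. RMER10A antisense had 477 and 595 CPM in homozygous IP, against 378 and 494 CPM in heterozygous IP, which overlap (log2 fold change 0.30, SE 0.222, with the sign turned when genic totals were used without TMM). RMER10B antisense had 190 and 239 CPM in homozygous IP, against 146 and 175 CPM in heterozygous IP (log2 fold change 0.41, SE 0.186, edgeR adjusted p = 0.0816). RLTR28 antisense had a log2 fold change of −0.41 (SE 0.195), a sign that turned under TMM within the transposon table. In the same families the sense strand fell: RMER10A sense had 22.5 and 14.8 CPM in homozygous IP, against 73.6 and 52.7 CPM in heterozygous IP (log2 fold change −1.77, SE 0.264, edgeR adjusted p = 6.89e-04), and RMER10B sense fell by 0.88 on the log2 scale. MLT2B3 sense also fell, with 39.7 and 58.1 CPM in homozygous IP, against 71.0 and 130 CPM in heterozygous IP (log2 fold change −1.03).

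By strand, the sense reads of the other ERVL families summed to 326 ± 7.31 CPM in homozygous IP and 823 ± 47.4 CPM in heterozygous IP, while their antisense reads summed to 1400 ± 148 CPM in homozygous IP and 1567 ± 123 CPM in heterozygous IP (SD, n = 2 each). The antisense sums overlapped between the genotypes. For MERVL and MT2 the order of the strands was the other way: the antisense sum fell by 1.55 on the log2 scale and the sense sum by 0.862. Of the 45 ERVL sense entries tested, 24 were called lower, and of the 61 antisense entries, 20. Over all transposons, 250 of 480 sense entries and 291 of 494 antisense entries were called lower. Over the whole class, 44 of 106 tested entries were lower and 1 was higher, with a median of −0.835. Under TMM within the transposon table that split became 12 lower and 8 higher, with RMER10A antisense (log2 fold change 1.11) and RMER10B antisense (1.23) among the higher. Over all 974 entries that scaling gave 28.2% called, 141 higher and 134 lower. In one fit of all 8 libraries, 5 ERVL entries were called, beside 3.58% of all 1060 entries.

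**Figure D2:**
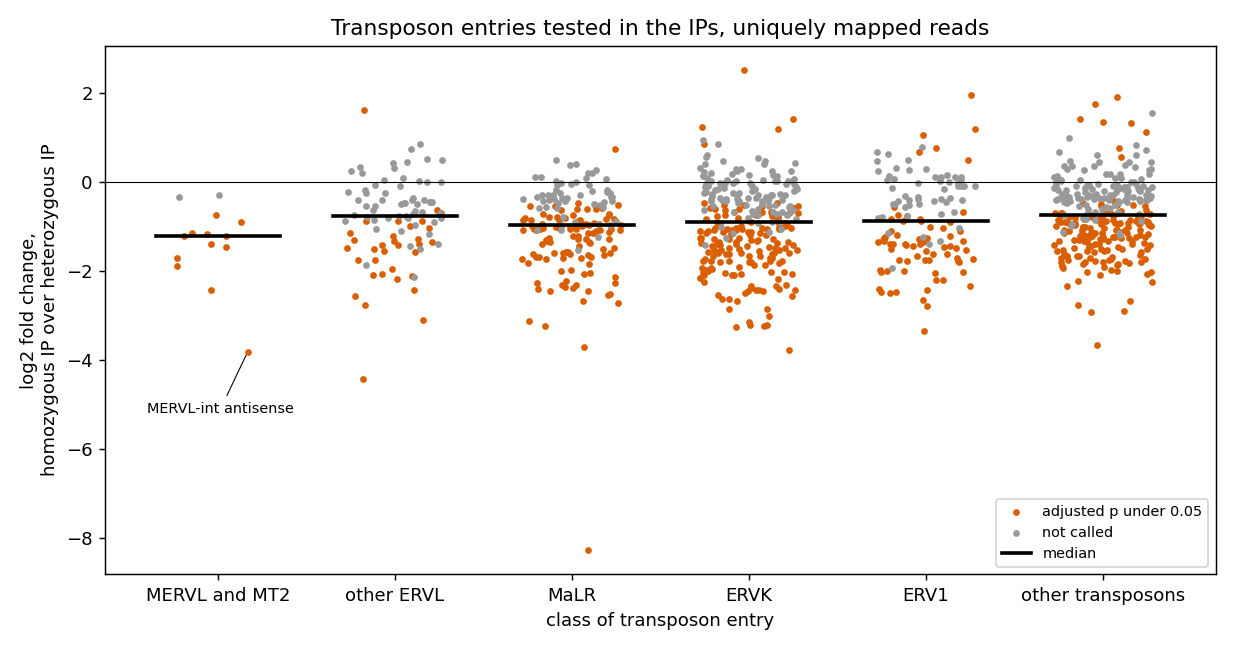
Log2 fold change of homozygous over heterozygous IP for each transposon entry tested, scaled by genic reads, grouped by class, with called entries in orange, others in grey and the class median as a bar. The medians are −1.21 for MERVL and MT2, −0.775 for other ERVL, −0.981 for MaLR, −0.904 for ERVK and −0.882 for ERV1, and MERVL-int antisense is at −3.82.

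The strand balance of a family needs no scaling between libraries. Antisense reads made up 32.3% and 25.1% of MERVL-int reads in homozygous IP, against 71.9% and 68.8% in heterozygous IP. The 95% Wilson intervals were 27.2 to 37.9% and 21.4 to 29.2% in homozygous IP, against 70.5 to 73.3% and 66.9 to 70.7% in heterozygous IP. They cover counting error only, since reads are not independent molecules. The means were 28.7 ± 5.08% in homozygous IP and 70.4 ± 2.19% in heterozygous IP (SD, n = 2 each), a difference of −41.7 percentage points. With 2 libraries against 2, a two-sided exact permutation test cannot go below p = 0.333, which is the value found. In testis, antisense reads made up 35.2% and 60.2% of MERVL-int reads in homozygous libraries, against 31.0% and 53.0% in heterozygous ones. The second testis library of each genotype had the higher share, and the heterozygous IPs lay above all 4 testis libraries.

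Among the 7 families the shift was largest in MERVL-int. In MT2C_Mm, antisense reads made up 46.9% and 44.0% in homozygous IP, against 60.2% and 63.6% in heterozygous IP, a difference of −16.5 points. In MT2B2 they made up 33.9% and 26.1% in homozygous IP, against 47.8% and 40.7% in heterozygous IP. In MERVL_2A-int the difference was −8.3 points, in MT2B −9.14 points and in MT2_Mm −5.95 points, and the groups overlapped in MT2_Mm alone of these. MT2A went the other way, with 67.8% and 62.9% antisense in homozygous IP, against 59.3% and 56.2% in heterozygous IP. RMER10A also had the larger antisense share in homozygous IP, at 95.5% and 97.6%, against 83.7% and 90.4% in heterozygous IP. Over all ERVL families outside MERVL and MT2, antisense reads made up 79.6% and 82.4% in homozygous IP, against 63.3% and 67.7% in heterozygous IP. Summed over the 7 MERVL and MT2 families, the mean share moved in the opposite direction, at 42.2% in homozygous IP and 54.2% in heterozygous IP. That sum includes MERVL-int, which shifted most, and MT2A, which went against it. The share of the set without MERVL-int was not computed. Over all transposons the share was 43.9% and 40.3% in homozygous IP, against 35% and 44.7% in heterozygous IP, which overlap.

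**Figure D3:**
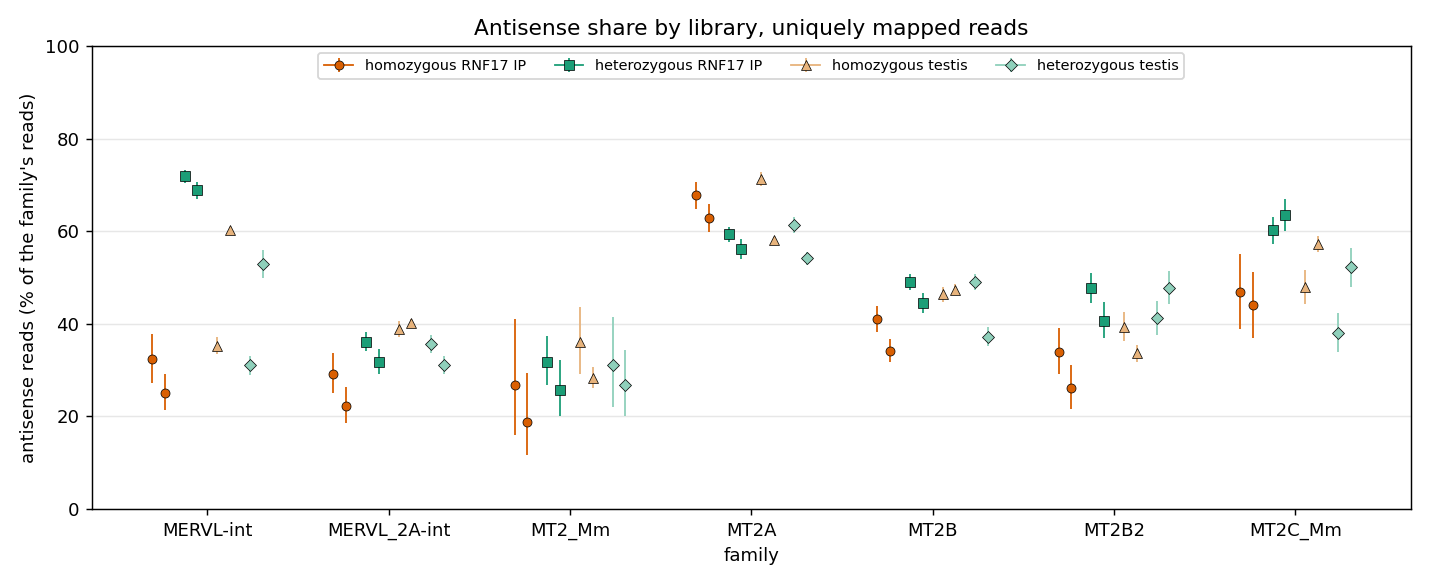
Antisense reads as a percentage of each MERVL or MT2 family's uniquely mapped reads, with 1 point per library and 95% Wilson intervals as error bars. MERVL-int stands at 32.3% and 25.1% in homozygous IP and at 71.9% and 68.8% in heterozygous IP, whereas MT2A has the larger share in homozygous IP.

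A further measure without gene scaling divides MERVL-int antisense reads by all uniquely mapped transposon reads. It was 23.8 and 23.0 per 100000 in homozygous IP, against 212 and 226 per 100000 in heterozygous IP. In testis it was 62.4 and 174 per 100000 in homozygous libraries, against 50.2 and 44.1 per 100000 in heterozygous ones. The 7 MERVL and MT2 families held 27.9% and 25.5% of ERVL reads in homozygous IP, against 38.2% and 37% in heterozygous IP. The ERVL class as a whole held 3.13% and 2.97% of transposon reads in homozygous IP, against 2.97% and 3.59% in heterozygous IP, so the share of the whole class did not separate the genotypes.

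Against its own input, homozygous IP held less MERVL. MERVL-int antisense had 17.2 and 19.0 CPM in homozygous IP, against 86.0 and 142 CPM in homozygous testis (log2 fold change −2.65, SE 0.433, edgeR adjusted p = 4.48e-06). MERVL_2A-int antisense had 23.7 and 15.8 CPM in homozygous IP, against 125 and 90.5 CPM in homozygous testis (log2 fold change −2.45, SE 0.429, edgeR adjusted p = 9.01e-06). Both entries lay below the whole range of the input. The sense strands of these families, MT2C_Mm antisense and MT2_Mm antisense were also called lower, with log2 fold changes between −1.71 and −1.44, which made 6 of 14 entries (7 with DESeq2). RMER15-int antisense led the other ERVL entries, at 9.61 and 6.78 CPM in homozygous IP, against 47.9 and 30.1 CPM in homozygous testis (log2 fold change −2.25). MLT2B3 sense was the 1 ERVL entry called higher, at 39.7 and 58.1 CPM in homozygous IP, against 14.9 and 19.3 CPM in homozygous testis (log2 fold change 1.51, SE 0.422, edgeR adjusted p = 0.00382).

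In this comparison 34 of 114 tested ERVL entries were called lower and 1 higher, with a median of −1.03. Of all 1000 entries tested, 35.7% were called, 34.2% lower and 1.5% higher, with a median of −0.886. An unadjusted p under 0.05 was reached by 47.4%, and DESeq2 called 34% of all entries and 29 of the ERVL entries. With TMM computed within the transposons, 10 ERVL entries were called, 3 higher and 7 lower. Among them were MERVL-int antisense (log2 fold change −1.98, edgeR adjusted p = 0.0232) and MERVL_2A-int antisense (−1.67). Of all 1000 entries, that scaling called 15.3%, 60 higher and 93 lower. Without the second homozygous IP library, MERVL-int antisense missed the threshold (adjusted p = 0.167), as it did in one fit of all 8 libraries (0.0659).

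Heterozygous IP held more MERVL-int antisense than its input, but not past the threshold. The levels were 270 and 244 CPM in heterozygous IP, against 101 and 36.0 CPM in heterozygous testis. The input libraries differed widely from each other (log2 fold change 1.90, SE 0.81, unadjusted p = 0.0187, edgeR adjusted p = 0.641). MERVL-int sense had 105 and 110 CPM in heterozygous IP, against 226 and 32.0 CPM in heterozygous testis, a wide range that held both IP values (log2 fold change −0.25, of the other sign under TMM within the transposon table and with genic totals without TMM). MT2C_Mm antisense had 64.8 and 72.7 CPM in heterozygous IP, against 33.7 and 18.7 CPM in heterozygous testis (log2 fold change 1.40, SE 0.77, edgeR adjusted p = 0.73). MT2_Mm antisense had 8.78 and 7.97 CPM in heterozygous IP, against 4.42 and 2.62 CPM in heterozygous testis. For these antisense entries every heterozygous IP library lay above both input libraries. The set as a whole did not move: of the 14 MERVL and MT2 entries, 7 had a log2 fold change above 0 and 7 below, with a median of 0.0456.

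No ERVL entry was called among the 120 tested in heterozygous IP against its input, by edgeR or by DESeq2. An unadjusted p under 0.05 was reached by 5, MERVL-int antisense, RMER10A sense and MLT2B5 sense on the higher side and LTR16E2 sense and MER70B antisense on the lower. Over all 1031 entries, edgeR called 0.194%, DESeq2 called 0.388%, and 6.5% had an unadjusted p under 0.05. The log2 fold change of MERVL-int antisense depended on the input library: it was 2.83 with the first heterozygous testis library left out and 1.34 with the second left out. In these fits the lone input library was taken to vary like the IPs.

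The interaction asks whether the ratio of IP to input differed between the genotypes. For MERVL-int antisense the log2 ratio was lower by 4.56 in homozygotes (log2 −4.56, SE 0.839, unadjusted p = 6.05e-05). Its edgeR adjusted p of 0.0641 was the smallest of 1060 entries and missed the threshold. With DESeq2 the adjusted p was 2.36e-05, and with TMM within the transposon table, genic totals without TMM, DESeq2 size factors or no filter on low counts edgeR gave 0.0442, 0.00253, 0.047 and 0.00186. With a library left out, the edgeR adjusted p ran between 8.1e-09 (without the first heterozygous testis library) and 0.445 (without the second homozygous IP library). MERVL-int sense had an interaction of −1.19 (SE 0.991). MT2C_Mm antisense had one of −2.83 (SE 0.714, edgeR adjusted p = 0.205), and MT2_Mm antisense one of −2.97 (SE 0.896, edgeR adjusted p = 0.21).

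By edgeR 0 of 127 ERVL entries passed, and 12 had an unadjusted p under 0.05. DESeq2 called 5, all lower in homozygotes: antisense MERVL-int, MT2C_Mm, MT2_Mm and LTR86B1, and sense RLTR28. LTR86B1 antisense had 0.554 and 0 CPM in homozygous IP, against 8.69 and 2.81 CPM in heterozygous IP, so its ratio rests on few reads. RLTR28 sense had 6.47 and 5.16 CPM in homozygous IP, against 28.2 and 24.4 CPM in heterozygous IP. Over all entries edgeR called 0%, DESeq2 called 1.79%, and 10.4% had an unadjusted p under 0.05. The median interaction was −1.08 over the MERVL and MT2 entries, −0.657 over ERVL and −0.613 over all entries.

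Total testis RNA gave no ERVL call between the genotypes. MERVL-int antisense had 86.0 and 142 CPM in homozygous testis, against 101 and 36.0 CPM in heterozygous testis (log2 fold change 0.73, SE 0.885). MERVL-int sense had 158 and 93.7 CPM in homozygous testis, against 226 and 32.0 CPM in heterozygous testis (log2 fold change −0.03, SE 0.893, of the other sign under TMM within the transposon table and with genic totals without TMM). The groups overlapped on both strands. MT2_Mm, the MERVL LTR, had 6.07 and 8.48 CPM antisense in homozygous testis, against 4.42 and 2.62 CPM in heterozygous testis (log2 fold change 1.07, SE 0.921), and 10.7 and 21.4 CPM sense in homozygous testis, against 9.87 and 7.19 CPM in heterozygous testis (log2 fold change 0.92, SE 0.851). Here the homozygous values lay above the heterozygous ones on both strands, by little more than 1 SE, and neither passed the test.

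Of 134 ERVL entries tested in testis 0 were called by edgeR or DESeq2, and 2 had an unadjusted p under 0.05, MER54B sense and MLT2B3 sense. MLT2B3 sense had 14.9 and 19.3 CPM in homozygous testis, against 38.3 and 187 CPM in heterozygous testis (log2 fold change −2.72, SE 0.923, edgeR adjusted p = 0.995). Over all 1074 entries edgeR called 0%, DESeq2 called 0%, and 1.77% had an unadjusted p under 0.05. The median log2 fold change was −0.108 over the MERVL and MT2 entries, −0.224 over ERVL and −0.24 over all entries, and with genic totals without TMM it was 0.288, 0.162 and 0.167. Summed over both strands, MERVL and MT2 reads had 1456 and 1029 CPM in homozygous testis, against 2025 and 804 CPM in heterozygous testis.

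**Figure D4:**
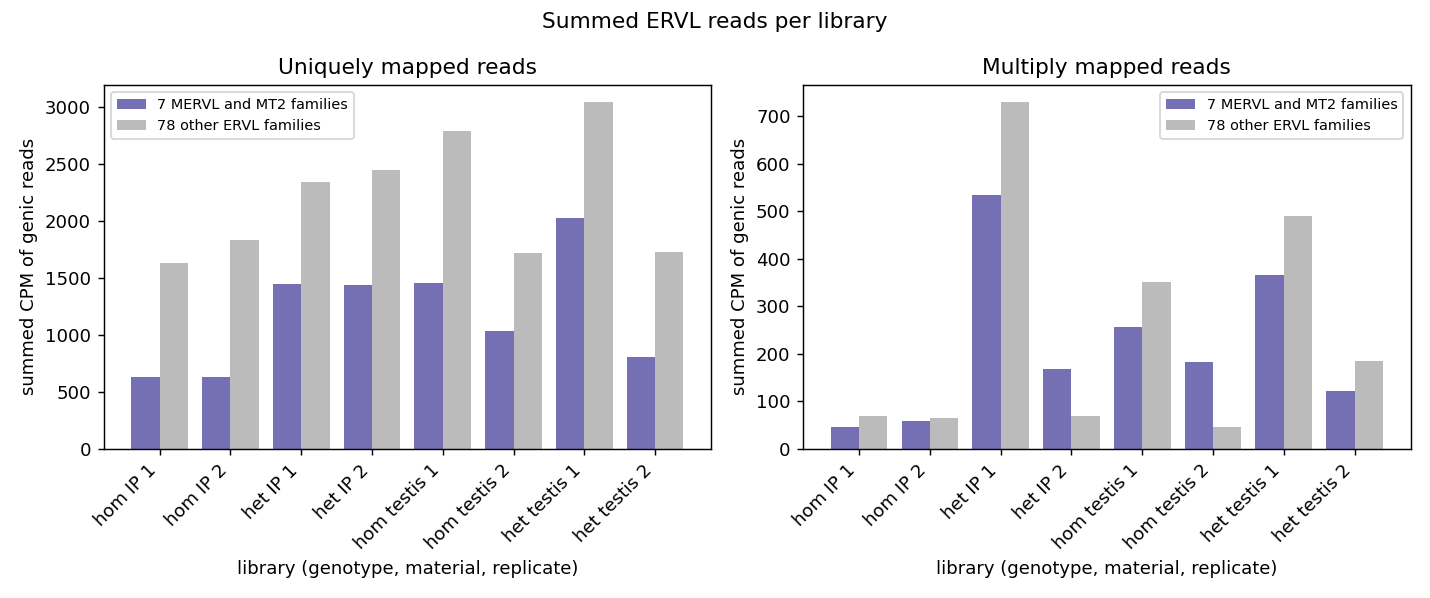
Summed CPM of genic reads of the 7 MERVL and MT2 families and of the 78 other ERVL families in each of the 8 libraries, for uniquely mapped reads and for multiply mapped reads. In uniquely mapped reads the MERVL and MT2 sums are 631 and 624 CPM in homozygous IP and 1443 and 1432 CPM in heterozygous IP, while the testis libraries of one genotype differ among themselves.

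Young families such as MERVL have near-identical copies, so the multiply mapped reads are part of their signal. ERVL entries held 623 and 752 such reads in homozygous IP, 13391 and 1520 in heterozygous IP, 5985 and 11274 in homozygous testis, and 5035 and 4684 in heterozygous testis. The first heterozygous IP library stood apart: its median ERVL entry was 23.7-fold above that of the second, and over the MERVL and MT2 entries 6.4-fold. The MERVL-int entries differed less than the median entry. Its antisense reads had 4.80 and 5.65 CPM in homozygous IP, against 80.7 and 49.6 CPM in heterozygous IP. They had 46.4 and 60.0 CPM in homozygous testis, against 64.46 and 10.46 CPM in heterozygous testis. The homozygous IPs were thus the lowest of the 8 libraries in this table as well (homozygous over heterozygous IP log2 fold change −3.63, SE 1.08, edgeR adjusted p = 0.156, DESeq2 adjusted p = 1.24e-04).

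MERVL-int sense in multiply mapped reads had 15.5 and 25.2 CPM in homozygous IP, against 67.3 and 61.3 CPM in heterozygous IP (log2 fold change −1.66, of the other sign under TMM within the transposon table; edgeR adjusted p = 0.204, DESeq2 adjusted p = 0.0398). MT2C_Mm antisense had 0.370 and 0.323 CPM in homozygous IP, against 23.8 and 4.22 CPM in heterozygous IP. MT2A antisense had 3.14 and 2.26 CPM in homozygous IP, against 72.6 and 5.00 CPM in heterozygous IP. In both LTRs the groups were separate, but the heterozygous libraries differed between themselves by more than 5-fold. The MT2C_Mm antisense values in homozygous IP also lay below the level of 3 reads, which was 0.554 and 0.484 CPM in these libraries. RMER10B antisense, for comparison, had 44.5 and 43.1 CPM in homozygous IP, against 46.4 and 26.1 CPM in heterozygous IP (log2 fold change 0.27, SE 0.942, with the sign turned for genic totals without TMM). The antisense share of MERVL-int was 23.6% and 18.3% in homozygous IP, against 54.5% and 44.7% in heterozygous IP, the same order as in uniquely mapped reads.

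**Figure D5:**
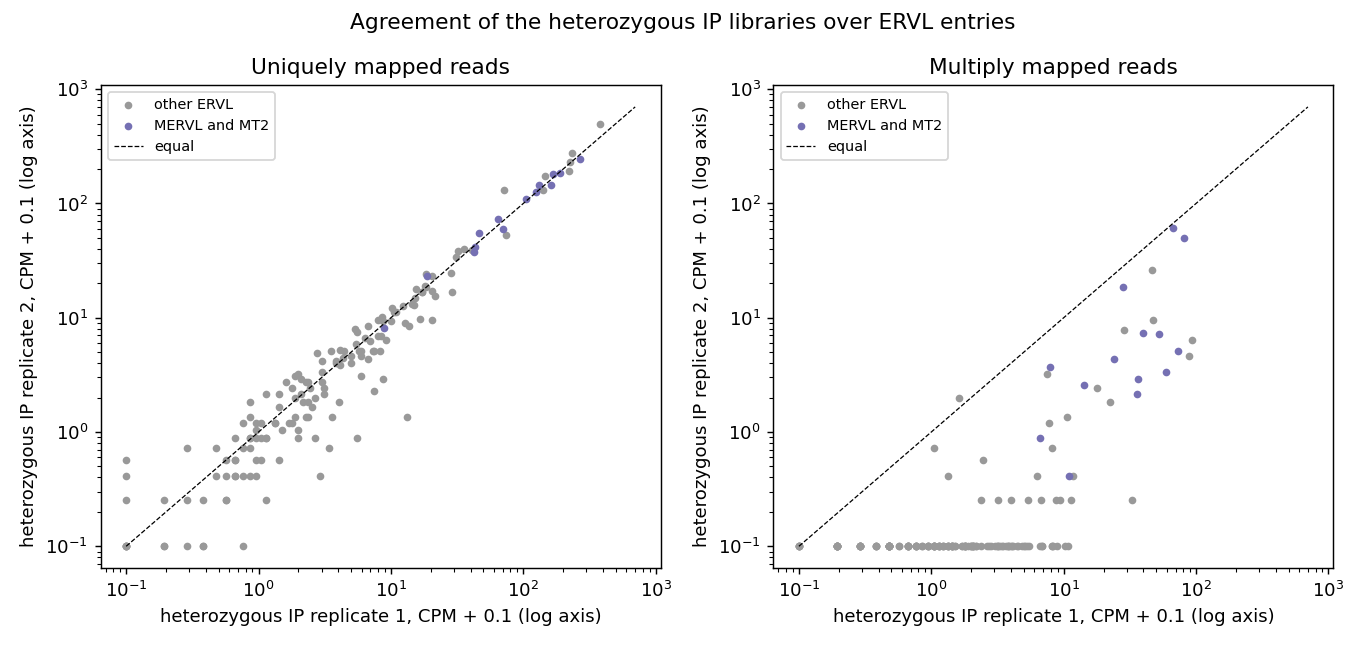
Level of each ERVL entry in the first (horizontal) and second (vertical) heterozygous IP library, as CPM plus 0.1 on log axes, for uniquely mapped and multiply mapped reads, with a dashed line at equality. Uniquely mapped entries lie along the line, with a median ratio of 1.06 over the 120 entries with enough reads. Multiply mapped entries lie below it, with a median ratio of 23.7 over the 81 entries with enough reads. Many of these 81 have 0 reads in the second library, where the added 0.1 CPM sets the ratio.

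In multiply mapped reads edgeR called 0 of 21 tested ERVL entries between the IPs, 9 had an unadjusted p under 0.05, and DESeq2 called 15 lower, 10 of them MERVL or MT2. Over all 404 entries edgeR called 0%, DESeq2 called 61.1%, and 29.7% had an unadjusted p under 0.05. In homozygous IP against its input edgeR called 2 of 19 ERVL entries, both lower, and DESeq2 called 9. These were ERVL-E-int sense (log2 fold change −5.63, SE 1.46, edgeR adjusted p = 0.0199) and MERVL-int antisense (log2 fold change −3.35, SE 0.982, edgeR adjusted p = 0.0342). ERVL-E-int sense, an internal region, had 0.924 and 0.807 CPM in homozygous IP, against 84.8 and 1.55 CPM in homozygous testis, so the first testis library carried that difference. Over all 444 entries 11% were called, 40.3% had an unadjusted p under 0.05, and DESeq2 called 37.4%.

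The other comparisons of multiply mapped reads gave no ERVL call by edgeR. Between the genotypes in testis 0 of 49 passed, with 1 at an unadjusted p under 0.05, and over all entries edgeR called 0%, DESeq2 called 0% and 0.396% had an unadjusted p under 0.05. In heterozygous IP against its input 0 of 51 passed, with 0 at an unadjusted p under 0.05, beside 0.134% of all entries by edgeR, 0.401% by DESeq2 and 0.802% at an unadjusted p under 0.05. For the interaction 0 of 52 passed, with 1 at an unadjusted p under 0.05 and 0 by DESeq2. Over all entries the interaction gave 0% by edgeR, 0.928% by DESeq2 and 4.11% at an unadjusted p under 0.05. MERVL-int antisense had an interaction of −4.14 (SE 1.66, edgeR adjusted p = 0.43) and a log2 fold change of 0.80 in heterozygous IP against its input.

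Genes that MERVL and MT2 drive or that act on them were read from the gene table. Of 34 genes of the 2-cell embryo linked to MERVL and MT2, 10 were in the table and 1 had enough reads to be tested in the IPs. It was Eif1a, a translation initiation factor, with 127 and 79.9 CPM in homozygous IP, against 98.6 and 110 CPM in heterozygous IP (log2 fold change −0.01), and the groups overlap. The next most abundant of the 10, Arg2, had a mean of 1.15 CPM over the 8 libraries, so Eif1a does not stand for the list. In testis 3 of the 10 were tested and 0 called by edgeR or DESeq2. Of 30 repressors of MERVL known from embryonic stem cells, 4 were called higher and 2 lower in homozygous IP, with a median of 0.196 beside 0.0202 over all genes. Ncl, the nucleolar protein nucleolin, was among the higher (log2 fold change 1.75, edgeR adjusted p = 4.31e-04) and Cbx5, the heterochromatin protein HP1 alpha, among the lower (log2 fold change −1.11, edgeR adjusted p = 0.0011). Over all 13241 genes tested in the IPs 31.5% were called. Both tested activators of MERVL, Dppa4 and Whsc2, were not called.

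Of 18 piRNA pathway genes tested in the IPs, 3 were called lower in homozygotes: Rnf17, Gtsf1 and Piwil1. Gtsf1, a zinc finger cofactor of PIWI proteins, had a log2 fold change of −2.37 (edgeR adjusted p = 3.76e-04), and Piwil1, the PIWI protein MIWI, one of −1.09 (edgeR adjusted p = 0.00191). The 3 calls of 18 lie below the 31.5% called over all genes in the IPs, and they include Rnf17, the gene that the genotypes alter. Piwil1 is also on the list of spermatocyte markers used below. In testis edgeR called 0 of 19 and DESeq2 called 1 lower. Over all 14236 genes in testis edgeR called 0% and DESeq2 called 4.66%.

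Marker genes of several testis cell types differed between the genotypes. The 12 markers of elongating spermatids summed to 327 and 374 CPM in homozygous IP, against 7225 and 6776 CPM in heterozygous IP, and all 12 were called lower (median log2 fold change −4). They summed to 319 and 320 CPM in homozygous testis, against 4549 and 23320 CPM in heterozygous testis, where edgeR called 0 and DESeq2 called all 12 lower. The 11 markers of round spermatids summed to 864 and 825 CPM in homozygous IP, against 2812 and 2620 CPM in heterozygous IP, with 9 called lower. They summed to 606 and 1034 CPM in homozygous testis, against 2794 and 12230 CPM in heterozygous testis, where edgeR called 0 and DESeq2 called 6 lower. Tnp1 is on both spermatid lists, so the 2 sums and counts of calls share it. It had 817.5 and 722.2 CPM in heterozygous IP, and 1204 and 7521 CPM in heterozygous testis. These late germ cell markers thus moved with the genotype in the same direction as the MERVL and MT2 reads of the IPs, and their part in those results was not tested. In the IPs, 3 of 7 Sertoli cell genes, 2 of 6 Leydig cell genes and 2 of 5 peritubular myoid cell genes were called higher in homozygotes, and none lower. Over all 13241 genes tested in the IPs, 31.5% were called, 1948 higher and 2218 lower. None of the counts of the marker lists was tested against that share. The Sertoli genes summed to 1160 and 789 CPM in homozygous IP, against 528 and 502 CPM in heterozygous IP. Of 10 spermatocyte genes 4 were called higher and 2 lower, of 7 spermatogonial genes 1 higher, and of 4 macrophage genes 1 lower. The single oocyte gene tested in the IPs was not called. In testis edgeR called 0 genes of these lists, and the medians were 0.848 for Sertoli, 1.37 for Leydig and 1.03 for myoid genes; DESeq2 called 1 spermatocyte and 1 oocyte gene, both lower. The part of these cell types in the MERVL and MT2 results was not tested either.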

How the data were processed

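The authors deposited whole-number counts of reads per gene, and of uniquely and multiply mapped reads per transposon family and orientation, per the file headers. The submitters' processing notes name STAR, DESeq and mm9. The sources used here do not give their roles and versions or the strand rule. All 12 lysate columns that repeat a testis column held identical values and were used once, and 0 columns were left unmapped. The reference held another build and no transposon sequences, so no coordinates or sequences are printed.

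CPM were computed from genic totals and TMM factors of the gene table (19276 entries, all 8 libraries). All transposon entries past filterByExpr (minimum count 10, total 15) went into edgeR 4.0.16 (R 4.3.3; quasi-likelihood test), on the 4 libraries of each comparison or on 8 for the interaction, with calls at an adjusted p (Benjamini-Hochberg over the table) under 0.05. SE is the absolute log2 fold change over the root of F. The scripts were tested on simulated data. DESeq2 1.42.0, 3 more scalings, no filter, a replicate block, 1 fit of 8 libraries and left-out libraries were the alternatives. Named were all MERVL and MT2 entries, the 4 other ERVL entries per strand with the highest mean level, and up to 3 called entries per direction with the smallest adjusted p. From the gene lists, up to 2 called members were named, or else the most abundant. Entries named beside a count outside this rule were chosen after their values were seen. Members and gene lists were chosen with earlier results of these data known. Near-identical copies make the split of reads between families uncertain.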

Additional observations from a re-analysis of the deposited data

How the results depend on the processing

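Of 647 values recomputed for the 57 log2 fold changes of named entries, 504 kept direction and side of the threshold, 75 lost the call, 48 gained one and 20 changed sign. ERVL calls between the IPs were 45 in uniquely mapped reads, beside 57.7% of all entries. They were 20 with TMM within the transposon table (28.2% of all entries) and 5 in one fit of 8 libraries (3.58%). MERVL-int antisense was called in both (edgeR adjusted p = 0.0124 in the fit of 8), and the other DESeq2 and scaling counts were within 1.5 times of 45. With a library left out, the ERVL median ran from −1.01 to −0.764 and that of all entries from −0.935 to −0.847. Homozygous IP against input gave 35 calls, beside 35.7% of all entries. It gave 21 with DESeq2 size factors (23.2% of all entries), 10 with transposon TMM (15.3%) and 0 in the fit of 8 libraries (0%). With a library left out, the calls moved widely, over all entries as over ERVL. The ERVL median then ran from −1.36 to −0.795 and that of all entries from −1.07 to −0.619. The interaction, 0 calls, gave 1 with DESeq2 size factors, transposon TMM or no filter, 3 with genic totals, 5 with DESeq2, and 0 to 36 with a library left out (36 without the first heterozygous testis). Heterozygous IP against input, 0 calls, gave 0 to 63 (63 without the second heterozygous testis, 30 without the first), and testis, 0 calls, gave 0 to 2. In multiply mapped reads, the IPs gave 15 with DESeq2 and 0 to 77 with a library left out (77 without the second heterozygous IP, 5 without the first). Homozygous IP against input, 2 calls, gave 0 with DESeq2 size factors, transposon TMM or 8 libraries, 1 with genic totals, 9 with DESeq2, and 0 to 29 with a library left out (29 without the second homozygous testis). In the gene table DESeq2 called 664 genes in testis, against 0 with edgeR. The MERVL-int antisense share differed by −45.3 to −38.1 points between the IPs with a library left out; this and the DESeq2 count of genes were alternatives chosen after seeing the data.

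With genic totals without TMM, MERVL-int sense turned to 0.35 in testis and 0.007 in heterozygous IP against input, RMER10A antisense to −0.024 and, in multiply mapped reads, RMER10B antisense to −0.051 between the IPs, and in testis the MERVL and MT2 sum to 0.227 (0.243 in multiply mapped reads) and the other ERVL sum to 0.369. Signs turned with transposon TMM for MERVL-int sense (0.46 in testis, 0.25 in heterozygous IP against input, 0.13 between the IPs in multiply mapped reads) and, between the IPs, for MT2A antisense (0.075), MT2B sense (0.46), MT2B2 sense (0.51) and RLTR28 antisense (0.40). With DESeq2 size factors the sums of heterozygous IP against input were −0.027 for MERVL and MT2 and −0.05 for other ERVL. With a library left out, MERVL-int sense ranged from −0.84 to 1.98 in testis and −1.06 to 1.75 in heterozygous IP against input. In multiply mapped reads MERVL-int antisense ranged from −0.28 to 2.35 in testis, MERVL-int sense from −0.36 to 1.51 in testis and −0.22 to 1.65 in heterozygous IP against input, and RMER10B antisense from −0.082 to 0.746 between the IPs. Log2 ratios of the MERVL and MT2 sum ranged from −0.705 to 0.628 in testis and −0.495 to 0.838 in heterozygous IP against input, and in multiply mapped reads from −0.744 to 0.838 and −0.536 to 1.525. Those of the other ERVL sum ranged from −0.476 to 0.38 in testis, −0.347 to 0.467 in heterozygous and −0.69 to 0.01 in homozygous IP against input, and in multiply mapped reads from −2.908 to 0.103, −2.282 to 1.117 and −2.405 to 0.559. The ERVL share of transposon reads ranged from −0.236 to 0.039 between the IPs and, in multiply mapped reads, from −0.199 to 0.486 in homozygous IP against input. The causes were not tested.

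The labels number the libraries of each group but do not pair them. With a replicate block the interaction gave 4 ERVL calls, 2 of them MERVL or MT2 entries (MERVL-int antisense edgeR adjusted p = 0.00142), beside 1.79% of all entries. Multiply mapped reads gave 1 between the IPs (3.22% of all entries) and 0 in homozygous IP against input (6.31%). With that block, MERVL-int sense in uniquely mapped reads was 0.52 in testis and 0.34 in heterozygous IP against input. Deviations of same-numbered libraries correlated at 0.479 between testes and 0.00858 between the IPs. With 2 numbers per comparison and no label that ties a number to a shared animal, batch or day, the numbers were not used as pairs, although the first testis libraries of both genotypes deviated alike. The unequal testis libraries, 2 libraries per group and the few multiply mapped reads in homozygous IP limit what could be detected.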
